A study of Mus musculus musculus x M. m. domesticus and Mus musculus musculus x Mus musculus castaneus and Mus musculus domesticus with 42 samples.

Results

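Glutamate and GABA receptor subunits are described here across brain, liver and testis of male mice from 7 genotypes. The set was defined by gene name: 34 genes of the AMPA, NMDA, kainate, delta and metabotropic glutamate receptors and of the GABA-A and GABA-B receptors, each read through every probe set whose only gene symbol in the platform annotation is that gene. A probe set is a group of short oligonucleotides on the array that is summarised as 1 signal for a transcript. Of the 34 genes, 32 had such probe sets, 73 in all, out of 45037 probe sets and 18193 gene symbols on the array. Grin1, the obligatory NMDA receptor subunit, and Gabbr2, the G-protein-coupling subunit of the GABA-B receptor, were not measured by any of them, and 2 probe sets that carry several symbols including a member were not used.

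The series measured 42 1-colour Affymetrix GeneChip 430 2.0 arrays, with brain, liver and testis taken from 14 males, 2 per genotype. The genotypes were the 4 reciprocal first-generation hybrids (F1, mother named first), namely musculus x domesticus at 53 days of age, domesticus x musculus at 50, musculus x castaneus at 53 and castaneus x musculus at 54, and their parents castaneus at 47, domesticus at 45 and musculus at 47 days, all from wild-derived inbred lines of these house mouse subspecies. Every genotype difference given here other than castaneus minus musculus is therefore also one between ages, and age and genotype cannot be told apart there. The study asked which transcripts differ between the parents and how the hybrids express them.

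Glutamate is the main excitatory transmitter of the brain. AMPA, NMDA and kainate receptors are cation channels built from combinations of subunits, and metabotropic glutamate receptors act through G proteins. GABA is the main inhibitory transmitter, and it acts on GABA-A receptors, which are chloride channels assembled from alpha, beta and gamma or delta subunits, and on GABA-B receptors, which couple to G proteins. Which subunits a neuron uses sets the kinetics, drug sensitivity and location of its receptors, and several subunits mark particular brain regions: Gabra6, Gabrd and Grin2c are known as subunits of cerebellar granule cells.

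Array medians ranged from 95 to 183 signal units. The 6 neuronal markers summed to between 50828 and 67658 in brain, at most 2961 in liver and at most 670 in testis. The 4 hepatocyte markers summed to between 74830 and 111550 in liver and reached at most 747 in brain and 2146 in testis. The 5 male germ cell markers summed to between 57694 and 105999 in testis and reached at most 746 in brain and 2462 in liver. Lists for other brain cells were mixed. Oligodendrocyte markers summed to at least 25739 in brain and at most 649 in liver and 947 in testis. Lists for forebrain excitatory neurons, striatal neurons and cerebellar granule cells were also higher in brain without overlap. Not all lists separated the tissues. Choroid plexus markers summed to between 13208 and 19153 in brain and between 23032 and 34897 in liver. The medians in brain and testis were 6935 and 10939 for microglia and 2730.5 and 5899 for thalamic neurons.

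One brain array stood apart. Replicate 2 of the musculus x castaneus F1 had a signal of 53 for Cbln3, a granule cell gene of the cerebellum, where the other 13 brain arrays ranged from 2239 to 4698, and a signal of 77 for Pcp2, a Purkinje cell gene, where they ranged from 3617 to 6475. The 6 measured granule cell markers summed to 4799 on this array and to between 14060 and 24883 on the others, and Barhl1 was the only one of the 6 not at its lowest there. All 3 measured Purkinje cell markers were at their lowest there too. Of the 4 measured markers of forebrain excitatory neurons, Neurod6 and Nrgn were at their highest of all 14 arrays. Tbr1 (1110 against 749 to 1346) and Neurod2 (1608 against 1174 to 1683) lay within the range of the other arrays. Of the receptor subunits, Gabra6 had the widest gap: its probe set 1417121_at read 22 on this array and 3424 to 6516 on the others, and 1451706_a_at read 77 against 1076 to 2316. Grm4, a presynaptic autoreceptor, read 967 there against 1618 to 2579 on the others, Grin2c read 381 against 424 to 1117, and Gabrd 1449980_a_at read 999 against 1121 to 1823. Counting every tested member probe set, 6 of 62 were at their lowest of the 14 arrays on this one and 6 at their highest, 9.68% each, and over all 27022 tested probe sets the shares were 6.85% and 7.26%. The highest readings included Gria2 1434146_at at 7736 against 5148 to 6986 on the others, and Grin2b 1457003_at at 2600 against 996 to 2177. All brain fits include this array unless stated. Without it, an alternative chosen after seeing the data, the parental calls in brain given below held, and 1 was added between castaneus and domesticus.

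**Figure D1:**
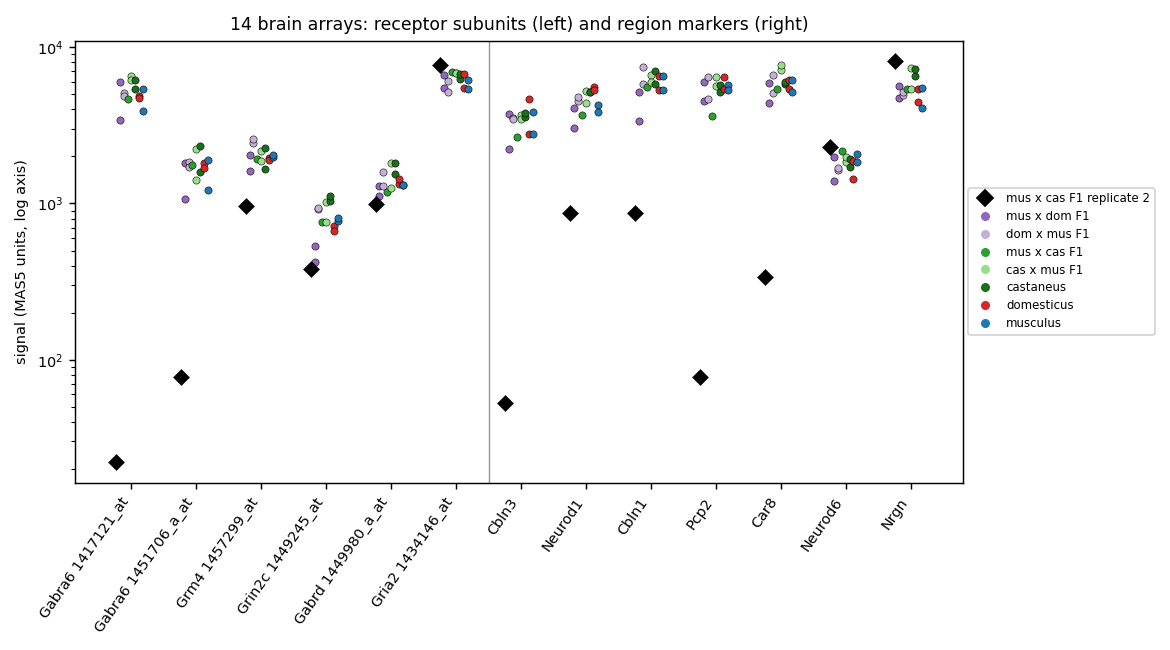
Signal (MAS5 units, log axis) of 6 receptor subunit probe sets and 7 region markers on the 14 brain arrays, by genotype; the diamond is replicate 2 of the musculus x castaneus F1. The diamond lies at 22 for Gabra6 1417121_at and at 53 for Cbln3, far under the other 13 arrays, and at the top for Gria2 1434146_at, Neurod6 and Nrgn.

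The first comparison asked where the subunits were detected. All differences are between values of log2(signal + 31), with the offset of 31 set at the 20th percentile over the table, and a call is a Benjamini-Hochberg adjusted p under 0.05 in limma. In brain, 64 of the 73 member probe sets were higher than in liver and 3 were lower, with a median difference of 3.37 over the 73 and of 0.02 over all probe sets. Such calls were common on the array: 74.9% of all 45037 probe sets were called between brain and liver, with 39.7% higher and 35.2% lower in brain. Against testis, 63 member probe sets were higher in brain and 3 lower, with a median difference of 3.29 against 0.13 over all, where 75.2% of all probe sets were called, 44.6% higher and 30.6% lower in brain. All 14 brain signals lay above all 14 liver signals for 49 of the 73 and above all 14 testis signals for 48, as they did for 16.2% and 19% of all probe sets. Quantile normalization shifted the medians over all probe sets to -0.12 for brain minus liver and 0.02 for brain minus testis. In whole tissue, fewer cells of a type and less RNA per cell cannot be told apart.

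**Figure D2:**
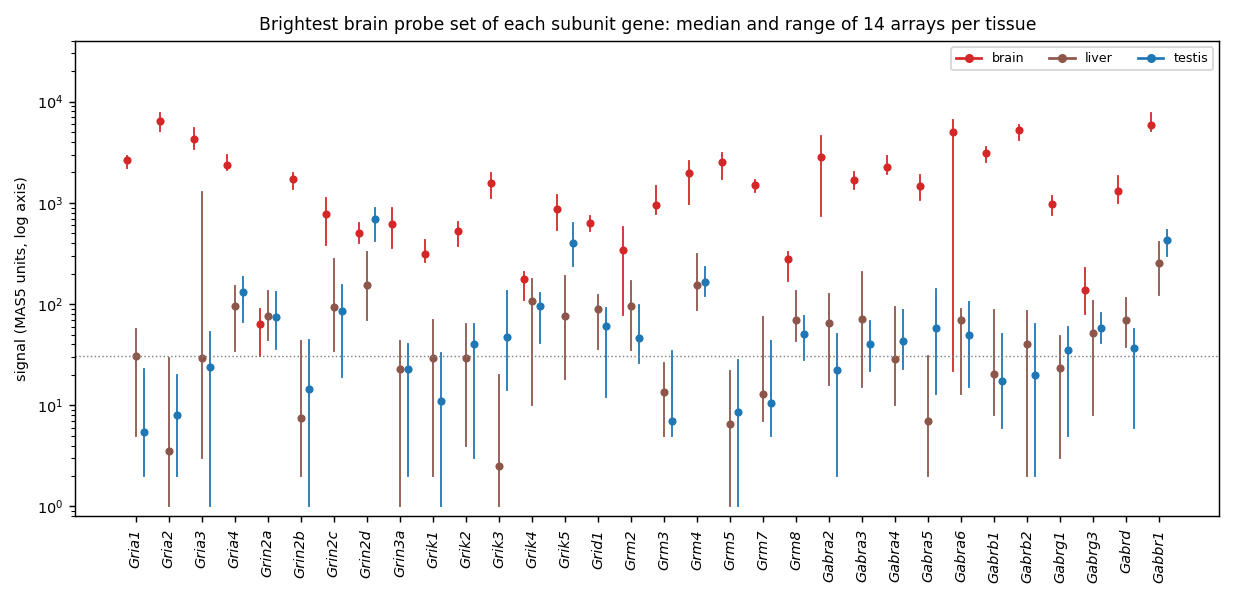
Signal (MAS5 units, log axis) of the brightest brain probe set of each of the 32 measured genes in brain, liver and testis; points are medians and lines the range of 14 arrays per tissue, and the dotted line is the offset of 31. Probe sets were chosen for their brain signal, which partly fixes the order of the tissues, and a probe set such as Grin2b 1422223_at (median 156 in brain, 612 in testis) is not shown; Gria2 has a brain median of 6429, Grin2d and Grik5 also have signal in testis, and signals of different genes are not comparable.

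The 4 AMPA receptor genes, whose channels carry most fast excitation, had all 10 of their probe sets higher in brain than in liver and than in testis. Gria2 encodes the subunit whose edited form keeps calcium out of the channel. Its probe set 1434146_at ranged from 5148 to 7736 (median 6429) on the 14 brain arrays, with medians of 3.5 in liver and 8 in testis. Its brain minus liver difference of 7.37 ± 0.0839 (SE; adjusted p = 9.68e-33) was the largest of all member probe sets. Gria1 1435239_at, for the subunit inserted during synaptic potentiation, ranged from 2210 to 2916 in brain and stayed at or under 57 in liver and 23 in testis. Gria3 1434728_at ranged from 3419 to 5453 in brain. Its liver signals were 1281 and 171 on castaneus replicates 1 and 2, and between 3 and 124 on the other liver arrays. The other Gria3 probe set, 1420563_at, was also at its liver maximum on castaneus replicate 1, at 337, and read 18 on replicate 2. Neither Gria3 probe set reached the mean signal needed for testing between genotypes in liver. Gria4 1435722_at ranged from 2091 to 2951 in brain, against 34 to 151 in liver and 67 to 186 in testis.

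The NMDA receptor genes, whose channels need glutamate and a co-agonist and pass calcium, were less uniform. Of their 11 probe sets, 8 were higher in brain than in liver and 7 higher than in testis, while 1 was lower than in liver and 2 lower than in testis. Grin2b 1442370_at, for a glutamate-binding subunit abundant in the forebrain, ranged from 1363 to 1991 in brain and reached at most 43 in liver and 44 in testis. Grin2c 1449245_at had a brain median of 769, a liver median of 94.5 and a testis median of 85.5. Grin3a, a glycine-binding subunit, was higher in brain with all 3 of its probe sets, by 2.3 to 3.59 against liver and by 1.52 to 3.64 against testis. Grin2a was measured by 1 probe set, 1421616_at, which was dim everywhere (31 to 90 in brain, 44 to 134 in liver, 36 to 131 in testis) and lay 0.27 ± 0.119 below liver (difference -0.27, adjusted p = 0.0446). It was the only measured gene that did not reach the brightness needed for genotype tests in brain.

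Grin2b and Grin2d had signal in testis. Grin2b 1422223_at ranged from 74 to 223 (median 156) in brain and from 241 to 1542 (median 612) in testis, with no overlap, and its brain minus testis difference was -1.87 ± 0.171 (adjusted p = 4.37e-11). The brain-bright Grin2b probe set 1442370_at went the other way, at 5.15 ± 0.108 (adjusted p = 1.39e-26). Probe sets of one gene thus differed between these tissues in opposite directions. Grin2d 1442328_at ranged from 400 to 630 in brain and from 422 to 898 in testis, a difference of -0.45 ± 0.0831 (adjusted p = 1.6e-05), and it was higher in brain than in liver by 1.38 ± 0.0831 (adjusted p = 3.62e-15). The other Grin2d probe set, 1421393_at, was called in neither comparison, with brain, liver and testis medians of 167.5, 203.5 and 170. Grik5, a kainate receptor subunit that joins channels formed by other subunits, read 535 to 1198 in brain and also 237 to 628 in testis, and was higher in brain by 1.03 ± 0.121 (adjusted p = 7.73e-09). Cells that carried these testis signals were not resolved in whole tissue.

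Among the other kainate and delta genes, Grik3 1440177_at stood out in brain with 1126 to 1955 against at most 20 in liver and 136 in testis. Grik1 1427676_a_at had a brain median of 315.5, against 29.5 in liver and 11 in testis. Grik2 1457683_at had a brain median of 533, against 29 in liver and 40 in testis. Grik4, like Grik5 an accessory subunit, was only 0.72 ± 0.179 higher in brain than in liver (109 to 206 against 10 to 178, adjusted p = 0.000719). The 2 probe sets of Grid1, a delta receptor that organises synapses, were higher in brain by 1.34 and 2.57 against liver. The dim other probe set of Grik3, 1427709_at, never exceeded 10 in brain and was called lower in brain than in both other tissues, by differences of -0.14 and -0.2, at signals under the offset.

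All 9 probe sets of the 6 metabotropic receptor genes were higher in brain than in both other tissues. Grm5, which couples to calcium release, ranged from 1732 to 3117 in brain with 1455272_at and reached at most 22 in liver and 28 in testis, a difference from liver of 6.05 ± 0.094 (adjusted p = 1.29e-29). Grm7 1443119_at, for a presynaptic autoreceptor, ranged from 1287 to 1681 in brain and reached at most 75 in liver and 43 in testis. Grm3, found on neurons and astrocytes, ranged from 782 to 1478 in brain and reached at most 26 in liver and 34 in testis. Grm4, Grm2 and Grm8 had smaller differences from liver, of 3.26, 1.57 and 1.49, with brain medians of 1974.5, 344 and 279.

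Of the 29 GABA-A probe sets, 25 were higher in brain than in liver and 25 higher than in testis. Gabrb2 1428203_at, for a beta subunit found in most GABA-A receptors, ranged from 4148 to 5820 in brain and reached at most 86 in liver and 63 in testis, a difference from testis of 6.58 ± 0.157 (adjusted p = 3.05e-25). Gabrb1 1419719_at ranged from 2520 to 3589, Gabra4 1433707_at from 1949 to 2918 and Gabra3 1436957_at from 1359 to 2024 in brain, and none of them exceeded 208 in liver or 88 in testis. Gabra5, an alpha subunit of extrasynaptic receptors in the hippocampus, ranged from 1060 to 1898 in brain. Gabrg1 1460408_at ranged from 767 to 1159 in brain and reached at most 60 in testis. Gabrg3, a gamma subunit, had its brightest probe set 1444549_at at medians of 139 in brain, 52 in liver and 57.5 in testis. Its probe set 1422187_at was lower in brain than in liver (10 to 128 against 30 to 211, difference -0.54 ± 0.159, adjusted p = 0.0031). Gabbr1, the ligand-binding subunit of the GABA-B receptor, ranged from 5172 to 7806 in brain with 1455021_at, against 123 to 406 in liver and 298 to 545 in testis.

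The next comparison asked which subunits differ between the parental subspecies in brain. Testing was limited to probe sets whose mean brain level reached the 40th percentile, which kept 62 of the 73 member probe sets from 31 genes, 19 of these genes with several. Between domesticus and musculus 2 of 62 were called (3.23%), 1 higher and 1 lower, where 5.75% of all 27022 tested probe sets were called, 3.26% higher and 2.48% lower. Between castaneus and musculus 2 of 62 were called (3.23%), both lower, against 6.07% of all tested, 2.95% being lower. Between castaneus and domesticus limma called 0 of 62, against 5.77% of all tested. An unadjusted p under 0.05 was found for 11 of the 62, a count not made over all probe sets. Single arrays moved these small counts: without castaneus replicate 1 there were 4 calls between castaneus and musculus and 2 between castaneus and domesticus, without musculus replicate 1 there was 1 between castaneus and musculus, and without domesticus replicate 1 or either musculus replicate there was 1 between domesticus and musculus. Differences under 0.5 in either direction were found for 83.9% of the member probe sets in both comparisons with musculus, and for 82.3% (domesticus) and 80.9% (castaneus) of all tested; for castaneus minus domesticus the shares were 74.2% of members and 81.5% of all tested. The arrays of the compared genotypes did not overlap for 27 of 62 member probe sets in each comparison (43.5%), against 49.4% of all tested for domesticus and musculus, 49.5% for castaneus and musculus and 45.6% for castaneus and domesticus.

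Gabra2 accounted for 3 of the 4 calls. It encodes an alpha subunit of benzodiazepine-sensitive GABA-A receptors. Its probe set 1443865_at read 781 and 693 in castaneus, 1081 and 875 in domesticus and 2254 and 2059 in musculus. Both musculus arrays lay above all other brain arrays. The castaneus minus musculus difference was -1.51 ± 0.164 (adjusted p = 0.00021), and the domesticus minus musculus difference was -1.12 ± 0.164 (adjusted p = 0.00162). Both calls held without any single replicate, with differences between -1.59 and -1.43 for castaneus and between -1.27 and -0.97 for domesticus. The comparisons share the musculus arrays. The summed signal of the 6 neuronal markers was 50828 and 53813 in castaneus, 64925 and 64333 in domesticus and 60773 and 59853 in musculus, so it was lower than in musculus in castaneus and higher in domesticus, and its part in the Gabra2 differences was not tested.

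Gabra2 1455444_at read 1691 and 742 in castaneus, 2487 and 2240 in domesticus and 4601 and 3727 in musculus. Its castaneus minus musculus difference was -1.85 ± 0.319 (adjusted p = 0.00454), the largest of the member differences in brain. Without musculus replicate 1 it was -1.7 (adjusted p = 0.0544) and no longer called, and over all single replicates left out it ranged from -2.43 to -1.28. The domesticus minus musculus difference of -0.8 ± 0.319 was not called (adjusted p = 0.209). Another Gabra2 probe set, 1421738_at, had the opposite sign: 824 and 1279 in castaneus, 1287 and 553 in domesticus and 366 and 683 in musculus, with differences from musculus of 0.99 ± 0.628 (adjusted p = 0.457) for castaneus and 0.72 ± 0.628 (adjusted p = 0.662) for domesticus. Its replicates varied too much for a call. Of the remaining Gabra2 probe sets, 1449807_x_at was dim at 54 to 204 in brain, with differences of -0.09 and 0.27, and 1420299_at had a brain median of 7.5 and was not tested.

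Gria1 gave the remaining call, with one of its probe sets. Gria1 1448972_at read 3856 and 2289 in domesticus, 1743 and 2091 in castaneus and 995 and 1265 in musculus. The domesticus arrays lay above the musculus arrays, with a difference of 1.38 ± 0.315 (adjusted p = 0.0239). The other probe set, 1435239_at, read 2702 and 2628 in domesticus and 2844 and 2694 in musculus, and its difference was -0.05 ± 0.125 (adjusted p = 0.904). The call for 1448972_at was lost without domesticus replicate 1 (1.01, adjusted p = 0.202), without musculus replicate 1 (1.21, adjusted p = 0.185) and without musculus replicate 2 (1.55, adjusted p = 0.075).

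**Figure D3:**
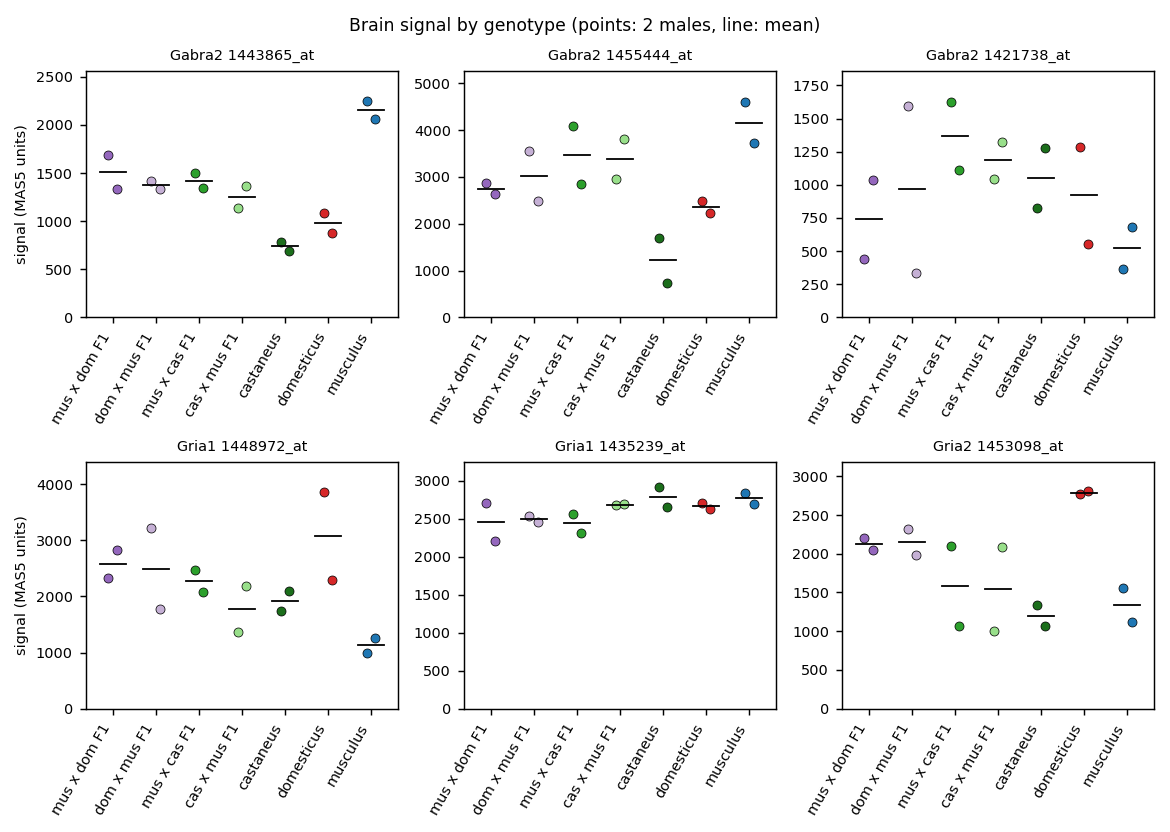
Brain signal (MAS5 units) of 3 Gabra2, 2 Gria1 and 1 Gria2 probe sets in each genotype; points are the 2 males and the line their mean. Castaneus (781 and 693) and domesticus (1081 and 875) lie below musculus (2254 and 2059) for Gabra2 1443865_at, with all F1 arrays between, while Gabra2 1421738_at and Gria1 1435239_at do not follow the other probe set of their gene.

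By family, the calls were 1 of 24 GABA-A and 1 of 10 AMPA probe sets for domesticus minus musculus, and 2 of 24 GABA-A probe sets for castaneus minus musculus. No probe set of the NMDA (10 tested), kainate (6), delta (1), metabotropic (8) or GABA-B (3) genes was called in either comparison. Over all tested probe sets 5.75% were called for domesticus and 6.07% for castaneus, so counts this small do not set the families apart. Median differences from musculus were small in each family, from -0.38 in GABA-B to 0 in AMPA genes for domesticus, and from -0.13 in the delta gene to 0.08 in kainate genes for castaneus. Several members came near the threshold. Gabra3 1436957_at read 1359 and 1374 in castaneus and 1776 and 1845 in musculus, a difference of -0.4 ± 0.113 (adjusted p = 0.0645). Gabbr1 1455021_at read 6566 and 7806 in domesticus and 5392 and 5381 in musculus, a difference of 0.41 ± 0.124 (adjusted p = 0.0873). Gria2 1453098_at gave the largest uncalled difference of domesticus from musculus (1.06 ± 0.338, adjusted p = 0.105), and Gabrb2 1429685_at that of castaneus from musculus (1.37 ± 0.524, adjusted p = 0.178). Castaneus minus domesticus differences reached -1.21 ± 0.338 for Gria2 1453098_at (adjusted p = 0.0625), which was called without the musculus x castaneus F1 array that lacked cerebellar markers, and -1.06 ± 0.303 for Gabrb1 1443205_at (adjusted p = 0.0677).

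**Figure D4:**
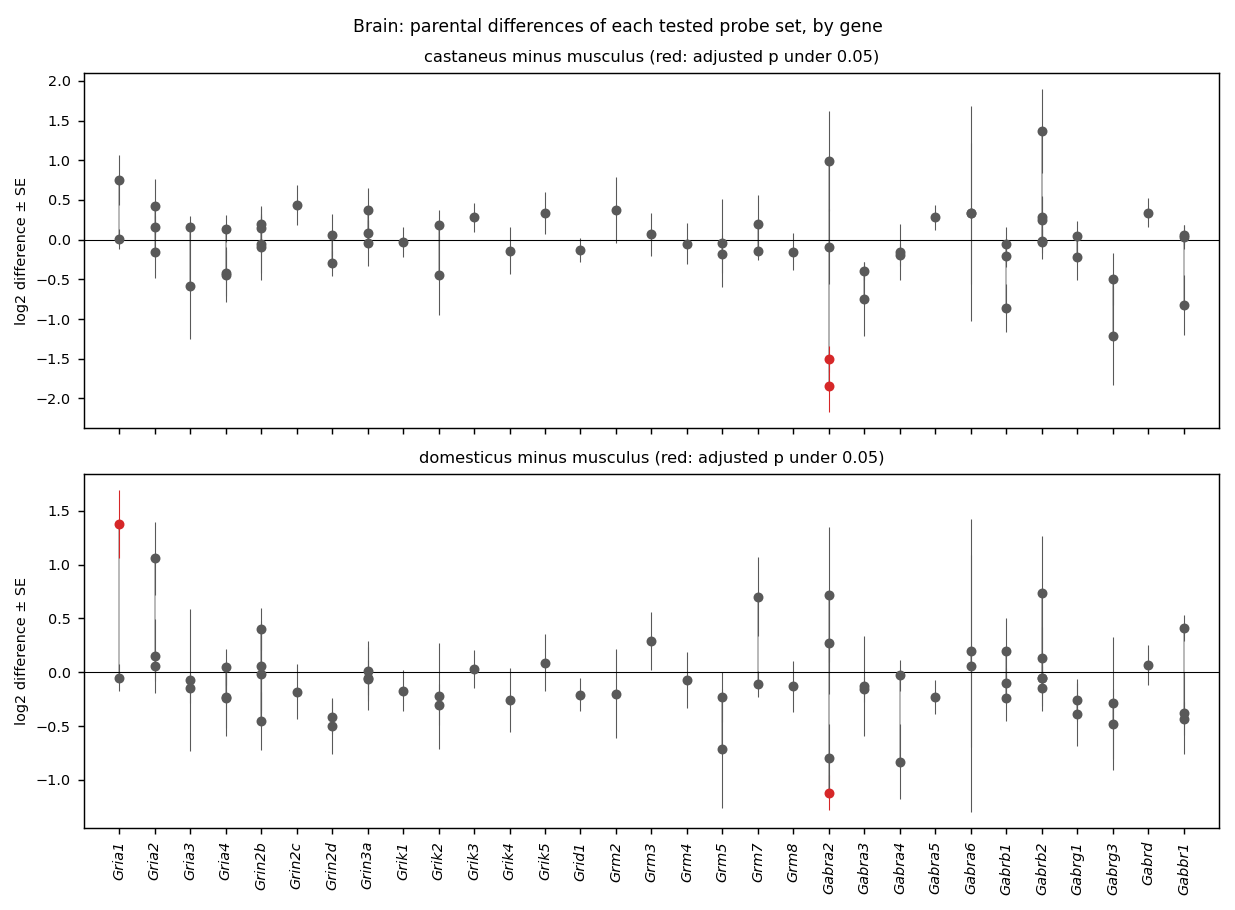
Log2 differences of castaneus (top) and domesticus (bottom) from musculus in brain for the 62 tested member probe sets, grouped by gene; bars are standard errors and red marks an adjusted p under 0.05. Most points lie within 0.5 of 0, and Gabra2 and Gria1 carry the red points beside uncalled probe sets of the same gene.

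The hybrids were compared with their parents to ask whether the subunits lay at the parental mean on the log2 scale. For the probe sets with a parental call, the mean of both reciprocal F1 was set against the mean of both parents. That mean lies below the log2 of the mean signal where the parents differ, so the test does not measure additivity of the signals themselves. Limma called 0 of 2 member probe sets as nonadditive in the domesticus cross, with 0 at an unadjusted p under 0.05, and 0 of 2 in the castaneus cross, with 1 at an unadjusted p under 0.05, where 8.76% and 8.9% of all probe sets with a parental call were nonadditive. Of these calls over all probe sets, 133 of 136 in the domesticus cross and 135 of 146 in the castaneus cross lay above the parental mean. In the domesticus cross, Gabra2 1443865_at read 1685 and 1333 in musculus x domesticus F1 and 1417 and 1334 in domesticus x musculus F1, all above domesticus and below musculus, and its departure from the parental mean was -0.01 ± 0.116. In the castaneus cross it read 1502 and 1340 in musculus x castaneus F1 and 1137 and 1365 in castaneus x musculus F1, again between the parents, with a departure of 0.07 ± 0.116. The castaneus cross F1 differed from castaneus by 0.83 ± 0.142 (adjusted p = 0.0147) and from musculus by -0.68 ± 0.142 (adjusted p = 0.0425). Without the array that lacked cerebellar markers these differences were 0.87 ± 0.158 (adjusted p = 0.0299) and -0.64 ± 0.158 (adjusted p = 0.119), so the call against musculus was lost.

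Gabra2 1455444_at was closer to musculus in the castaneus cross. It read 4097 and 2845 in musculus x castaneus F1 and 2954 and 3821 in castaneus x musculus F1, above castaneus by 1.57 ± 0.276 (adjusted p = 0.0173) and not called against musculus (-0.29 ± 0.276, adjusted p = 0.708). Its departure of 0.64 ± 0.225 from the parental mean did not pass the test (adjusted p = 0.0958 over the probe sets with a parental call). It passed, at 0.93, without castaneus replicate 1. Without the array that lacked cerebellar markers the difference from castaneus was 1.7 ± 0.29 (adjusted p = 0.0218) and the departure 0.77 ± 0.245 (adjusted p = 0.0854). Gria1 1448972_at read 2331 and 2834 in musculus x domesticus F1 and 3223 and 1772 in domesticus x musculus F1, with a departure of 0.43 ± 0.223 (adjusted p = 0.283). Among the 60 member probe sets without a parental call in a cross, limma called 0 outside the range of both parents in either cross, with 0 at an unadjusted p under 0.05 in both, and 0% of all probe sets was called.

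Reciprocal F1 males carry the same autosomal genomes and differ in which parent was the mother. They also differ in the origin of the X and Y chromosomes and of the mitochondria, and here in age. In brain, limma called 0 of 62 member probe sets between musculus x domesticus and domesticus x musculus F1, against 0.0222% of all tested. Between musculus x castaneus and castaneus x musculus F1 it also called 0 of 62, against 0.0111%. An unadjusted p under 0.05 was found for 2 and 5 member probe sets, a count not made over all probe sets. Grin2c had the smallest p of the domesticus cross: it read 534 and 424 in musculus x domesticus F1 and 919 and 932 in domesticus x musculus F1, a difference of -0.92 ± 0.254 (adjusted p = 0.788). The granule cell markers summed to 20376 and 14060 in musculus x domesticus F1 and to 21226 and 22806 in domesticus x musculus F1, and their part in the Grin2c difference was not tested. In the castaneus cross, Gabra6 1417121_at gave a difference of -3.67 ± 1.36 (adjusted p = 1), from 4649 and 22 in musculus x castaneus F1 and 6516 and 6130 in castaneus x musculus F1. Without the array that lacked cerebellar markers that difference was -0.44. With that array as the only musculus x castaneus F1, both Gabra6 probe sets were called, at -6.9 and -4.07.

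Probe sets of one gene were then compared with each other, by testing the log2 value of each against the mean of the other tested probe sets of the gene. Between domesticus and musculus 2 of 50 member probe sets departed (4%), both of Gria1, against 5.32% of the 15690 probe sets tested in this way. Since this gene has 2 tested probe sets, both calls are the same contrast: 1448972_at departed by 1.44 ± 0.345 (adjusted p = 0.0323) and 1435239_at by -1.44 ± 0.342 (adjusted p = 0.031). Between castaneus and musculus 1 of 50 departed (2%), against 5.26% of all: Gabra2 1455444_at, by -1.65 ± 0.35 (adjusted p = 0.0167). Gabra2 1443865_at departed by -1.19 ± 0.318 (adjusted p = 0.0526) and 1421738_at by 2.14 ± 0.679 (adjusted p = 0.105). The Gria1 calls were lost without domesticus replicate 1 (adjusted p = 0.242 and 0.251 for the 2 probe sets), musculus replicate 1 (0.237 and 0.243) or musculus replicate 2 (0.0875 and 0.09), and were kept without domesticus replicate 2. The Gabra2 1455444_at departure was lost without musculus replicate 1 (-1.28, adjusted p = 0.179) or castaneus replicate 2 (-1.19, adjusted p = 0.168), and was kept without musculus replicate 2 or castaneus replicate 1.

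Over the 19 genes with several tested probe sets, the range of the difference between probe sets of a gene had a median of 0.44 for domesticus minus musculus and 0.57 for castaneus minus musculus. Probe sets of a gene had both signs in 9 of 19 genes for domesticus and in 12 of 19 for castaneus. Signs were counted at any size of difference. Neither these ranges nor these counts were computed over all genes, so they do not set the members apart. Gabra2 had the widest range, 1.84 for domesticus and 2.84 for castaneus, and Gabrb2, with 5 tested probe sets, ranged over 0.89 and 1.4. Its probe set 1429685_at read 3841 and 4868 in castaneus, 4540 and 1684 in domesticus and 2154 and 1264 in musculus, while the brightest, 1428203_at, differed from musculus by -0.02 in castaneus and -0.05 in domesticus. Grin3a and Gabra3 were among the narrow ones, with ranges of 0.07 and 0.03 for domesticus minus musculus.

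The spread between the 2 males of a genotype differed among probe sets of one gene as well. The pooled standard deviation of replicates in brain had a median of 0.3 over the 62 member probe sets (0.05 to 1.75) and of 0.22 over all tested probe sets. The highest value was that of Gabra6 1417121_at, and without the musculus x castaneus F1 the member range was 0.05 to 0.84, with a median of 0.29 and 0.28 for this probe set. In Gabra3 it was 0.05 for 1436957_at and 0.57 for 1421263_at, in Gria3 0.13 for 1434728_at and 0.83 for 1420563_at, and in Grm7 0.07 for 1443119_at and 0.43 for 1458861_at. Gria3 1420563_at shows what this means in signals: it read 895 and 290 in castaneus, 1429 and 390 in musculus x castaneus F1 (390 on the array that lacked cerebellar markers) and 367 and 925 in castaneus x musculus F1.

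Whether parental differences depended on the tissue could be tested for the 12 member probe sets, of 8 genes, that were bright enough in all 3 tissues. For domesticus minus musculus 1 of 12 was called (8.33%), against 12.4% of the 20178 probe sets tested. For castaneus minus musculus limma called 0 of 12, against 13.8% of all tested, and 1 of the 12 had an unadjusted p under 0.05. The called probe set was Gria2 1453098_at. It read 2771 and 2806 in domesticus and 1563 and 1120 in musculus in brain, 276 and 145 in domesticus and 381 and 268 in musculus in liver, and 186 and 76 in domesticus and 192 and 152 in musculus in testis. Domesticus was thus above musculus in brain without overlap, and the genotypes overlapped in liver and in testis. The domesticus minus musculus difference was 1.06 in brain. The liver difference minus the brain difference was -1.65 and the testis difference minus the brain difference was -1.46, with an adjusted p of 0.0488 for the 2 together. The call was lost without domesticus replicate 2 (adjusted p = 0.399), without musculus replicate 1 (adjusted p = 0.2) and without musculus replicate 2 (adjusted p = 0.217). It was also lost with a smaller offset (adjusted p = 0.0622), without the brightness filter (adjusted p = 0.0976) and without the animal as a block (adjusted p = 0.244). The other 2 Gria2 probe sets differed by 0.15 and 0.06 between domesticus and musculus in brain and were too dim elsewhere to be tested for this.

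Differences between genotypes in liver and testis concern few members. In liver 17 member probe sets of 11 genes were bright enough for a test. Limma called 0 of 17 in each of 4 comparisons: domesticus minus musculus (1 at an unadjusted p under 0.05, 6.17% of all called), castaneus minus musculus (0 at an unadjusted p under 0.05, 6.55%), musculus x domesticus minus domesticus x musculus F1 (2, 0.0888%) and musculus x castaneus minus castaneus x musculus F1 (1, 0.037%). In testis, 16 member probe sets of 10 genes were tested. Limma called 0 of 16 for domesticus minus musculus (2 at an unadjusted p under 0.05, 12.8% of all called), 0 for castaneus minus musculus (1, 13.5%) and 0 for musculus x domesticus minus domesticus x musculus F1 (2, 0.204%). For musculus x castaneus minus castaneus x musculus F1, where 28.4% of all tested probe sets were called and 10.6% were lower, 1 of 16 was called, lower.

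That probe set was Grin2d 1442328_at, named here after its values were seen, as are the testis values of Grin2b. Grin2d 1442328_at read 475 and 422 in musculus x castaneus F1 testes and 587 and 650 in castaneus x musculus F1 testes, a difference of -0.44 ± 0.154 (adjusted p = 0.0476) where the median over all tested probe sets was 0.24. Leydig cell markers summed to 9506 and 9568 in musculus x castaneus F1 testes and to 4867 and 3805 in castaneus x musculus F1 testes. Male germ cell markers summed to 65173 and 57694 and to 68173 and 63093. Their part in the Grin2d difference was not tested. Over all tested probe sets 4836 were higher and 2851 lower in this comparison, and after quantile normalization 2739 were higher and 3381 lower, with a median of 0.03. The call was lost without any single one of these 4 arrays, with adjusted p from 0.0753 to 0.207. Grin2b 1422223_at, the probe set brighter in testis than in brain, varied more between genotypes: it read 1542 and 1439 in musculus x domesticus F1, 644 and 712 in domesticus x musculus F1, 1112 and 932 in domesticus and 503 and 665 in musculus. These groups did not overlap within either pair, but the share of all testis probe sets without overlap was not computed. In brain the arrays of 2 parental genotypes did not overlap for 45.6% to 49.5% of all tested. Its reciprocal difference of 1.1 ± 0.254 (adjusted p = 0.178) and its domesticus minus musculus difference of 0.78 ± 0.254 (adjusted p = 0.062) did not pass the test. In the castaneus cross it read 350 and 241 in musculus x castaneus F1, 580 and 340 in castaneus x musculus F1 and 341 and 504 in castaneus.

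**Figure D5:**
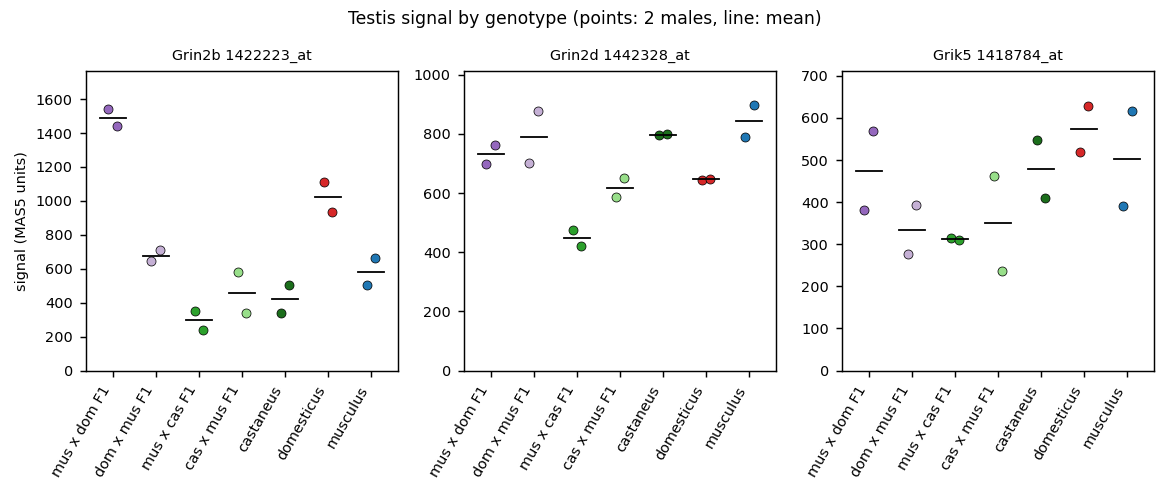
Testis signal (MAS5 units) of Grin2b 1422223_at, Grin2d 1442328_at and Grik5 1418784_at by genotype; points are the 2 males and the line their mean. Grin2b lies at 1542 and 1439 in musculus x domesticus F1, above the 644 and 712 of domesticus x musculus F1, and Grin2d is lowest in musculus x castaneus F1, at 475 and 422.

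Other genes of glutamate and GABA synapses, a list of 41 transporters, synthetic enzymes and scaffold proteins of which 36 genes with 77 probe sets were tested in brain, gave 3 calls of 77 (3.9%) in each parental comparison. Over all tested probe sets the shares were 5.75% for domesticus and musculus, 6.07% for castaneus and musculus and 5.77% for castaneus and domesticus. For domesticus minus musculus 3 were higher: the glutamate transporters Slc1a2 (1439940_at, 3.76 ± 0.813, adjusted p = 0.0178) and Slc1a3 (1426340_at, 1.49 ± 0.336, adjusted p = 0.0228) and the scaffold gene Homer1 (0.81 ± 0.2, adjusted p = 0.0351). For castaneus minus musculus 2 were higher, Slc1a3 (1.44 ± 0.336, adjusted p = 0.0264) and Glul, which encodes glutamine synthetase (0.52 ± 0.113, adjusted p = 0.0188), and 1 was lower, the kinase gene Camk2a (-1.14 ± 0.234, adjusted p = 0.0134). For castaneus minus domesticus, Glul (0.84 ± 0.113, adjusted p = 0.00118) and the scaffold gene Dlg2 (0.55 ± 0.144, adjusted p = 0.0488) were higher and Homer2 was lower (-0.7 ± 0.151, adjusted p = 0.0185). Each call came from a single probe set of its gene. For domesticus minus musculus, other probe sets differed by 0.41 and 0.27 in Slc1a2, -0.07 to 0.94 in Slc1a3 and -0.11 to 0.48 in Homer1. For castaneus minus musculus they differed by -0.5 in Glul, -0.02 to 1.14 in Slc1a3 and -0.71 to 0.43 in Camk2a. None of these was called. Slc1a2, Slc1a3, Camk2a and Glul also had probe sets that departed from the others of the same gene. No probe set of this list was called between the reciprocal F1 in brain.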

How the data were processed

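The values are linear probe set intensity values of the series' deposited value table, computed by the authors with MAS5 per the submitters' processing notes; its version, and any filter, is not stated in the labels or notes. The deposited values are whole numbers with a trimmed mean near 500 on each array, so scaling was global, and no further normalization was made. Groups came from the sample labels. Genes came from the platform annotation, in which 34945 probe sets carry 1 symbol, 932 several and 9160 none. The number of arrays limits the precision, and whether the 2 males of a genotype were raised separately is not given, so p-values measure the spread between these animals.

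Signals were taken as log2(signal + 31) and fitted in limma 3.58.1 (R 4.3.3; figures and lists in Python 3.11.15 with numpy 2.4.6), with 1 mean per genotype, a trended prior and 7 residual degrees of freedom. Probe sets whose mean level in a tissue reached its 40th percentile were tested, 27022 per tissue, at a mean signal of at least 100 in brain, 82.4 in liver and 84.3 in testis. P-values were adjusted over all of them by the Benjamini-Hochberg method, at 0.05. Shares of all probe sets called rest on the adjusted p, and an unadjusted p under 0.05 was counted for members only. Tissues were compared over all 42 arrays without a filter, with the animal as a random block (correlation 0.195). Tissue dependence was an F test over the 20178 probe sets that passed in every tissue (animal correlation 0.293). The labels number the males of a genotype the same way in each tissue, and this number was taken as the animal. Samples of the same number and genotype deviated together, with correlations of 0.102 to 0.312 in 21 of 21 pairs of tissues. The probe set comparison was fitted on the log2 value minus the mean of the gene's other tested probe sets. The scripts were tested on simulated data.

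Alternatives were a changed offset, no filter, quantile normalization, the replicate number as a block, no animal block, and leaving out each replicate. Values in every array are given for members called in brain, in the probe set comparison or in the tissue dependence test, and other members are given by their brightest brain probe set and ranges; the rule allows up to 4 other synapse genes per comparison. The members, the gene lists and the tests were chosen with earlier results of these data known. Sequences of the probe sets were not used here, so a difference between subspecies is one in probe set signal. Whether it was also one in expression of the gene was not tested.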

Additional observations from a re-analysis of the deposited data

Results flagged for a closer look

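One result was flagged because its parental difference was called as dependent on the tissue. It was 1 of 12 member probe sets tested (8.33%), against 12.4% of all 20178 tested, so such calls were not more frequent among members. For Gria2 1453098_at the test of domesticus minus musculus across brain, liver and testis gave an adjusted p of 0.0488, with differences of 1.06 in brain, -0.59 in liver and -0.41 in testis. Domesticus read 2771 and 2806 and musculus 1563 and 1120 in brain, where both domesticus arrays were higher. In liver domesticus read 276 and 145 and musculus 381 and 268, and in testis domesticus read 186 and 76 and musculus 192 and 152, with overlap in both. None of the 3 differences passed the test within its own tissue (adjusted p = 0.105, 0.586 and 0.668). The call was lost without domesticus replicate 2, musculus replicate 1 or musculus replicate 2 (adjusted p = 0.399, 0.2 and 0.217), with a smaller offset (adjusted p = 0.0622), without the filter (adjusted p = 0.0976) and without the animal as a block (adjusted p = 0.244), and was kept without domesticus replicate 1 (adjusted p = 0.0447).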

How the results depend on the processing

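None of the member differences recomputed one by one changed sign under the alternatives run, while the median over all probe sets turned from 0.02 to -0.12 for brain minus liver under quantile normalization. Gabra2 1443865_at was called in both comparisons under each of them, and brain differed from liver for 65 to 69 and from testis for 66 to 68 member probe sets when single animals were left out. Counts of member calls moved as follows. Without the filter, castaneus minus domesticus had 2 (Grik1 1439987_at and Grm7 1459532_at), castaneus nonadditivity 1, probe set departure 5 (castaneus) and 4 (domesticus), tissue dependence 6 (castaneus) and 5 (domesticus), liver castaneus minus musculus 1 (Gria3 1434728_at), testis castaneus minus musculus 1 and testis domesticus minus musculus 4, with 73 in place of 62 or fewer tested. Quantile normalization gave 1 for castaneus minus domesticus, 2 for castaneus departure and 2 for the testis castaneus reciprocal comparison (Grin2d and Grin2b). Doubling the offset gave 2 castaneus departures, and halving it gave 0 for the domesticus tissue dependence. The replicate block gave 1 for castaneus minus domesticus (Gabra2 1455444_at) and changed no other count by over 1.5 times; same-numbered samples correlated above 0.1 in 12 of 21 genotype pairs in brain, 9 in liver and 10 in testis, so the numbers were not taken as pairs. With no replicate block for the animal, the Gria2 tissue dependence was not called (adjusted p = 0.244, count 0). Leaving out single replicates gave ranges of 0 to 2 for castaneus minus domesticus, 1 to 4 for castaneus minus musculus, 1 to 2 for domesticus minus musculus, 0 to 2 for the castaneus reciprocal comparison, 0 to 1 for castaneus nonadditivity and for expression outside the castaneus parents, 0 to 4 and 0 to 2 for castaneus and domesticus departure, and 0 to 1 for both tissue dependence tests and for the testis castaneus reciprocal comparison. Without musculus x castaneus F1 replicate 2, an alternative chosen after seeing the data, castaneus minus domesticus had 1 (Gria2 1453098_at). Except where a setting tests more probe sets or fewer samples, the cause was not tested. Signals near the offset limit Grin2a, Grik3 1427709_at and Gabra2 1420299_at.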
